A study of Mus musculus and Homo sapiens with 16 samples.

Results

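The Hox genes encode homeodomain transcription factors that sit in 4 clusters of the mouse genome. The members were all genes of the deposited count files whose symbol is Hox followed by a cluster letter (a, b, c or d) and a paralog number. This rule uses no measured value and found 38 genes among the 39179 genes of the files, namely 11 Hoxa, 10 Hoxb, 9 Hoxc and 8 Hoxd genes. The RefSeq gene table lists 39 such genes. Hoxd4, the one without a row in the files, was not analysed here. Its RefSeq span (GRCm38, chromosome 2, 74721978 to 74729160, plus strand) lies inside the span the files give to Hoxd3. Exons were not compared, so whether reads of Hoxd4 were counted for Hoxd3 is not known.

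Hox genes are known for colinearity. Genes at one end of a cluster, with low paralog numbers, are used in the head, neck and upper trunk, and those at the other end, with high numbers, in the lower trunk, the limbs and the tail. Skin keeps a record of this code after birth, above all in the dermal fibroblasts of each body region, and some members have a further role in the epidermis and its appendages, such as Hoxc13, which hair keratin genes need. The clusters are held silent by Polycomb complexes where they are not used, and H3K27ac, an acetylated histone mark, lies over promoters and enhancers in use.

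The samples come from the skin of C57BL/6 mice labelled as lacking 1 or both copies of Klf5, which encodes a zinc-finger protein that regulates genes in epithelia. In the set whose titles carry the letters HFD, which the labels do not expand, 2 libraries were labelled Klf5-/- (KO below) and 2 Klf5+/- (Het below). This set was epidermis peeled off with dispase and ground in liquid nitrogen, with no sort and no stage or age given. The E17.5 set held 3 KO and 3 Het libraries of embryonic epithelium, peeled with dispase, dissociated with trypsin and sorted for live cells (no DAPI) without the blood cell protein CD45 and with integrin alpha 6, a surface protein of basal cells. Peak lists of H3K27ac ChIP-seq, KLF5 ChIP-seq and ATAC-seq, an assay of open chromatin, came from 1 sample each of sorted E17.5 epithelium labelled wild type, although the title of the ATAC sample says Het. The labels name neither the part of Klf5 deleted nor any Cre line, neither the body site of the skin nor the number of animals behind a library, and no group is said to hold separate animals.

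Total counts on genes ranged from 31819010 to 46445546 over the 10 RNA libraries, so that 3 counts correspond to 0.0646 to 0.0943 CPM, the count scaled to library size. Klf5 had 2953 and 4956 counts in the libraries labelled HFD KO, against 2523 and 1575 in those labelled HFD Het. At E17.5 it had 6501 to 7211 counts in libraries labelled KO and 6609 to 8376 in those labelled Het, which overlapped. With the deleted part not given, these counts do not check the genotype, and KO and Het stand here for the labels. All 14 keratinocyte markers were counted in both sets, with a summed level of 73780 and 80930 CPM in the HFD KO libraries, against 42780 and 35740 CPM in the HFD Het libraries. At E17.5 the sums were 52760 to 68330 CPM in KO and 74230 to 90930 CPM in Het libraries. Replicates of a group differed well beyond counting noise, with a chi-square per gene of 20.9 to 71.4 between 2 libraries and of 129 between the 2 HFD KO libraries, which stand furthest apart. Levels in CPM below are scaled by TMM factors over all 10 libraries, and RPKM is that CPM per kilobase of exon.

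Most of the anterior and central Hox genes were transcribed in the skin in both sets, while fewer of the posterior ones were. By the mean of a set, posterior genes reached 1 CPM least often at E17.5. A mean of at least 1 CPM was reached by 28 of the 38 genes in the HFD set and by 23 at E17.5, against 35.6% and 32.3% of all genes in the files. In paralog groups 1 to 8 the count was 20 of 22 in each set, with Hoxb1 and Hoxd1 below that level in both. In paralog groups 9 to 13 it was 8 of 16 in the HFD set (Hoxa9, Hoxa10, Hoxb9, Hoxc9, Hoxc10, Hoxc13, Hoxd9 and Hoxd10) and 3 of 16 at E17.5 (Hoxa9, Hoxb9 and Hoxc13). The HFD means combine the genotypes, and in HFD KO alone Hoxa10 averaged 0.776 CPM and Hoxd10 0.267 CPM. With at least 1 CPM required in every library, 22 of 38 Hox genes remained in each set. By a mean of at least 1 RPKM it was 20 in the HFD set and 19 at E17.5. Shares of all genes were not computed for these rules. Hoxa13, Hoxc12, Hoxd12 and Hoxd13 had no count in any library. Hoxa11 and Hoxc11 had none at E17.5, and Hoxb13 had none in the HFD set.

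The order of the levels was set by RPKM, since CPM depends on gene length. At E17.5 Hoxa7 was first with 17.1 ± 1.83 RPKM, followed by Hoxb7 with 13.4 ± 2.04 and Hoxa5 with 12.6 ± 1.20 RPKM (mean ± SD, n = 6 each), and the ranges of these 3 overlapped. Every library had more Hoxa5 than any had of the next gene, Hoxc8 (9.44 ± 1.20 RPKM). From Hoxc8 down to Hoxb5, each gene overlapped its neighbour in the order, and below Hoxb5 (0.843 ± 0.240 RPKM) there was a gap to Hoxd3 (0.381 ± 0.165 RPKM). In the HFD set the order differed between the genotypes. In HFD KO libraries Hoxa7 was first (11.3 and 12.6 RPKM), with Hoxd8 at 2.52 and 4.38 RPKM, below Hoxa5, Hoxb7, Hoxb2 and Hoxc8 among others by mean. In HFD Het libraries Hoxd8 had the highest mean (9.76 and 10.1 RPKM) and overlapped Hoxa7 (5.21 and 9.96 RPKM). With all 4 HFD libraries together, each of the 28 genes down to Hoxa3 overlapped its neighbour.

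**Figure D1:**
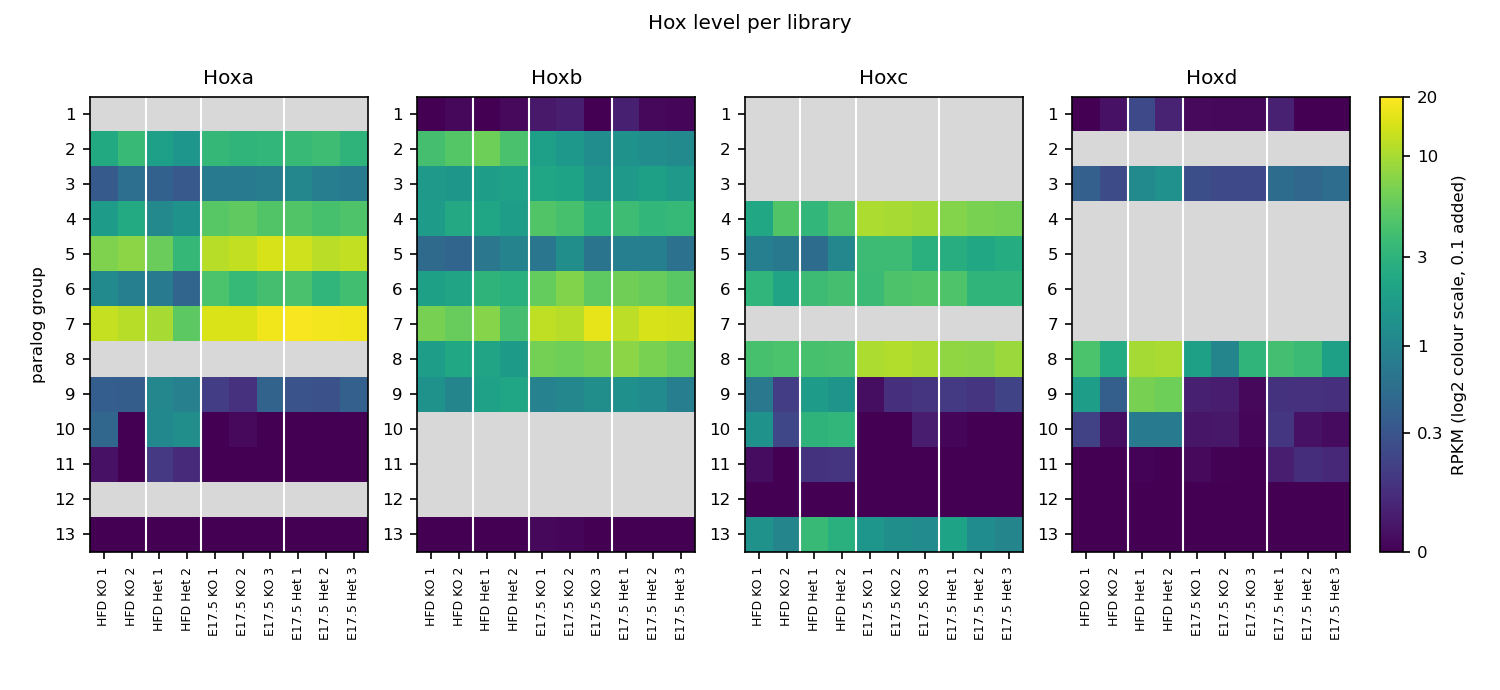
Level of each Hox gene in each library in RPKM, on a log2 colour scale with 0.1 added. Columns are libraries, rows are paralog groups 1 to 13 in each of the 4 clusters, and grey marks numbers with no gene shown. Bright rows lie in paralog groups 2 to 8 in all 10 libraries, and rows 9 and 10 of Hoxa, Hoxc and Hoxd are brightest in the 2 HFD Het libraries.

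Hoxa genes of the low and middle paralog groups were transcribed in every library, and in the HFD set Hoxa2, Hoxa4, Hoxa5, Hoxa6 and Hoxa7 had higher levels in both KO than in both Het libraries, as did 27% of all genes tested, and none of the 5 passed the genotype test. Hoxa2 had 5.81 and 8.55 CPM in the HFD KO libraries, against 4.54 and 3.69 CPM in the HFD Het libraries, and 8.04, 7.57 and 7.78 CPM in the E17.5 KO libraries, against 8.38, 9.18 and 7.39 CPM in the E17.5 Het libraries. Hoxa3 had 2.39 and 4.02 CPM in the HFD KO libraries, against 2.88 and 2.29 CPM in the HFD Het libraries, and 5.54, 5.33 and 5.79 CPM in the E17.5 KO libraries, against 7.27, 5.97 and 5.22 CPM in the E17.5 Het libraries. Hoxa3 overlapped between the groups of both sets, while Hoxa2 was higher in both HFD KO libraries. Hoxa2 acts in the second pharyngeal arch and Hoxa3 in the thymus and parathyroid. Hoxa4 had 2.75 and 3.94 CPM in the HFD KO libraries, against 1.78 and 2.2 CPM in the HFD Het libraries, and 7.83, 8.60 and 7.35 CPM in the E17.5 KO libraries, against 7.48, 6.65 and 7.28 CPM in the E17.5 Het libraries. Hoxa5 had 13.4 and 14.7 CPM in the HFD KO libraries, against 11.1 and 6.29 CPM in the HFD Het libraries, and 21.2, 23.1 and 26.9 CPM in the E17.5 KO libraries, against 25.6, 21.6 and 23.1 CPM in the E17.5 Het libraries. Hoxa5, a regulator of lung development, and Hoxa4, which patterns neck vertebrae, were higher in both HFD KO than in both HFD Het libraries and overlapped at E17.5.

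Hoxa6 had 1.95 and 1.55 CPM in the HFD KO libraries, against 1.33 and 0.805 CPM in the HFD Het libraries, and 7.55, 5.88 and 7.06 CPM in the E17.5 KO libraries, against 7.46, 5.54 and 6.76 CPM in the E17.5 Het libraries. Hoxa7 had 36.2 and 32.5 CPM in the HFD KO libraries, against 28.6 and 15.0 CPM in the HFD Het libraries, and 42.5, 42.0 and 51.6 CPM in the E17.5 KO libraries, against 54.1, 52.0 and 51.5 CPM in the E17.5 Het libraries. Both were higher in the 2 HFD KO than in the 2 HFD Het libraries, as were 27% of all genes tested. Hoxa7, the Hox gene with the highest level in RPKM at E17.5, overlapped between genotypes at E17.5. Hoxa9 and Hoxa10, which act in the limbs and the lower trunk, went the other way in the HFD set, as did 32.7% of all genes tested. Hoxa9 had 2.19 and 2.11 CPM in the HFD KO libraries, against 5.90 and 5.08 CPM in the HFD Het libraries, and 0.915, 0.636 and 2.45 CPM in the E17.5 KO libraries, against 1.60, 1.52 and 2.28 CPM in the E17.5 Het libraries. Hoxa10 had counts of 39 and 0 in the HFD KO libraries, against 120 and 135 in the HFD Het libraries, and 0, 2 and 0 in the E17.5 KO libraries, against 0 in each E17.5 Het library. The Hoxa10 counts thus separated the sets in all but HFD KO replicate 2, which had none. Hoxa11 had 2 and 0 counts in the HFD KO and 13 and 8 in the HFD Het libraries.

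Of the Hoxb genes, 8 were at 1 CPM or more on average in both sets, and none of these passed the genotype test in either set. Hoxb2 is a hindbrain gene. Hoxb2 had 14.4 and 17.02 CPM in the HFD KO libraries, against 21.5 and 14.9 CPM in the HFD Het libraries, and 6.69, 5.57 and 4.34 CPM in the E17.5 KO libraries, against 4.94, 4.32 and 4.05 CPM in the E17.5 Het libraries. Hoxb2 was called higher in the HFD set than at E17.5 (1.77 on the log2 scale), as were 35.9% of all genes tested between the sets. Hoxb3 had 5.01 and 4.70 CPM in the HFD KO libraries, against 5.58 and 5.89 CPM in the HFD Het libraries, and 6.56, 6.14 and 4.39 CPM in the E17.5 KO libraries, against 4.98, 5.87 and 4.97 CPM in the E17.5 Het libraries. Hoxb4 had 7.16 and 9.73 CPM in the HFD KO libraries, against 9.14 and 7.56 CPM in the HFD Het libraries, and 19.2, 17.2 and 12.4 CPM in the E17.5 KO libraries, against 15.7, 13.5 and 14.1 CPM in the E17.5 Het libraries. Hoxb4 is known for its part in blood stem cells. Hoxb3 was lower in both HFD KO than in both HFD Het libraries, as were 32.7% of all genes tested. Hoxb4 was called lower in the HFD set than at E17.5, as were 33.6% of all genes tested between the sets. Hoxb5 had 1.47 and 1.29 CPM in the HFD KO libraries, against 2.02 and 2.73 CPM in the HFD Het libraries, and 1.96, 3.597 and 1.87 CPM in the E17.5 KO libraries, against 2.501, 2.47 and 1.81 CPM in the E17.5 Het libraries. Hoxb6 had 4.02 and 4.42 CPM in the HFD KO libraries, against 6.29 and 5.82 CPM in the HFD Het libraries, and 11.6, 15.0 and 11.1 CPM in the E17.5 KO libraries, against 13.0, 11.9 and 10.6 CPM in the E17.5 Het libraries. Both were lower in the 2 HFD KO than in the 2 HFD Het libraries, as were 32.7% of all genes tested.

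Hoxb7 had 10.3 and 8.81 CPM in the HFD KO libraries, against 11.8 and 6.38 CPM in the HFD Het libraries, and 18.4, 17.2 and 25.3 CPM in the E17.5 KO libraries, against 18.2, 22.5 and 22.1 CPM in the E17.5 Het libraries. Hoxb8 had 4.78 and 5.94 CPM in the HFD KO libraries, against 5.55 and 4.52 CPM in the HFD Het libraries, and 17.4, 16.3 and 17.7 CPM in the E17.5 KO libraries, against 21.0, 18.1 and 16.0 CPM in the E17.5 Het libraries. Neither separated the genotypes in either set. Each was called lower in the HFD set than at E17.5, as were 33.6% of all genes tested between the sets. Hoxb9 had 3.70 and 2.65 CPM in the HFD KO libraries, against 5.07 and 5.64 CPM in the HFD Het libraries, and 2.47, 2.72 and 3.27 CPM in the E17.5 KO libraries, against 3.44, 3.10 and 2.22 CPM in the E17.5 Het libraries. Hoxb9, a gene of the thoracic trunk, was lower in both HFD KO than in both HFD Het libraries, as were 32.7% of all genes tested. Hoxb9 overlapped at E17.5. Hoxb1 and Hoxb13 averaged below 1 CPM in each set. Mutants of Hoxb8 in mice are known for excessive grooming.

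Hoxc4, Hoxc5 and Hoxc8 were called lower in the HFD set than at E17.5, as were 33.6% of all genes tested between the sets. Hoxc9 to Hoxc12 were near 0 at E17.5. Hoxc4 had 5.89 and 11.8 CPM in the HFD KO libraries, against 8.37 and 11.4 CPM in the HFD Het libraries, and 26.5, 25.2 and 23.9 CPM in the E17.5 KO libraries, against 18.9, 17.51 and 16.6 CPM in the E17.5 Het libraries. Hoxc5 had 2.75 and 2.31 CPM in the HFD KO libraries, against 1.72 and 3.31 CPM in the HFD Het libraries, and 11.4, 11.3 and 8.61 CPM in the E17.5 KO libraries, against 8.11, 7.14 and 7.88 CPM in the E17.5 Het libraries. Both were higher in all 3 E17.5 KO than in all 3 E17.5 Het libraries, as were 5.93% of all genes tested at E17.5. The span of Hoxc5 overlaps Hoxc6, Hoxc8, Hoxc9 and Hoxc10 on the same strand, so its counts are uncertain. Hoxc6 had 8.00 and 5.32 CPM in the HFD KO libraries, against 9.29 and 10.2 CPM in the HFD Het libraries, and 9.03, 11.3 and 11.5 CPM in the E17.5 KO libraries, against 11.5, 7.71 and 7.73 CPM in the E17.5 Het libraries. Hoxc8 had 9.71 and 10.1 CPM in the HFD KO libraries, against 9.58 and 9.76 CPM in the HFD Het libraries, and 23.9, 24.7 and 23.5 CPM in the E17.5 KO libraries, against 18.9, 18.3 and 20.7 CPM in the E17.5 Het libraries. Hoxc8, which patterns the thoracic skeleton, was also among these 5.93%, higher in all 3 E17.5 KO than in all 3 E17.5 Het libraries. Hoxc6, which marks motor neurons at forelimb level, was lower in both HFD KO than in both HFD Het libraries, as were 32.7% of all genes tested.

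Hoxc9 had 1.79 and 0.394 CPM in the HFD KO libraries, against 4.24 and 3.501 CPM in the HFD Het libraries, and 0.0509, 0.263 and 0.291 CPM in the E17.5 KO libraries, against 0.352, 0.299 and 0.470 CPM in the E17.5 Het libraries. Hoxc10 had counts of 69 and 14 in the HFD KO libraries, against 197 and 199 in the HFD Het libraries, and 0, 0 and 4 in the E17.5 KO libraries, against 1, 0 and 0 in the E17.5 Het libraries. Both genes, which act in the lower thoracic and lumbar trunk, were above 1 CPM on average in the HFD set alone, with HFD KO replicate 2 the lowest of the HFD libraries. Hoxc13 had 3.46 and 2.48 CPM in the HFD KO libraries, against 8.60 and 6.82 CPM in the HFD Het libraries, and 3.74, 3.20 and 2.96 CPM in the E17.5 KO libraries, against 5.14, 3.01 and 2.51 CPM in the E17.5 Het libraries. Hoxc13, needed for hair and nail, was the only Hoxc gene of paralog groups 9 to 13 above 1 CPM on average at E17.5. It was lower in both HFD KO than in both HFD Het libraries, as were 32.7% of all genes tested. Hoxc11 had 1 and 0 counts in the HFD KO and 8 and 8 in the HFD Het libraries.

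All 4 Hoxd genes above 1 CPM in the HFD set were lower in both HFD KO than in both HFD Het libraries, as were 32.7% of all genes tested. Hoxd3 had 2.71 and 1.58 CPM in the HFD KO libraries, against 7.68 and 9.05 CPM in the HFD Het libraries, and 1.70, 1.47 and 1.46 CPM in the E17.5 KO libraries, against 3.63, 3.15 and 3.72 CPM in the E17.5 Het libraries. Hoxd3, which acts in the neck vertebrae, was lower in every KO library than in every Het library of its set. At E17.5 this held for 8.83% of all genes tested. Hoxd8 had 12.0 and 6.92 CPM in the HFD KO libraries, against 26.8 and 27.7 CPM in the HFD Het libraries, and 5.26, 2.79 and 8.51 CPM in the E17.5 KO libraries, against 11.1, 9.97 and 5.35 CPM in the E17.5 Het libraries. Hoxd8, a trunk gene, overlapped between the genotypes at E17.5. Hoxd9 had 3.94 and 0.872 CPM in the HFD KO libraries, against 14.5 and 13.3 CPM in the HFD Het libraries, and 0.127, 0.110 and 0.0243 CPM in the E17.5 KO libraries, against 0.254, 0.244 and 0.224 CPM in the E17.5 Het libraries. Hoxd10 had 0.477 and 0.0563 CPM in the HFD KO libraries, against 2.05 and 2.11 CPM in the HFD Het libraries, and 0.102, 0.110 and 0.0243 CPM in the E17.5 KO libraries, against 0.352, 0.0815 and 0.0448 CPM in the E17.5 Het libraries. Hoxd9 and Hoxd10, genes of the limb and lower trunk, were low at E17.5 and in HFD KO replicate 2, and high in the HFD Het libraries. Hoxd11, a gene of the forearm whose span overlaps Hoxd10, had counts of 3, 1 and 0 in the E17.5 KO libraries, against 16, 21 and 20 in the E17.5 Het libraries, and a single count in HFD Het replicate 1 and none in the other HFD libraries. Hoxd1 averaged below 1 CPM in each set.

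**Figure D2:**
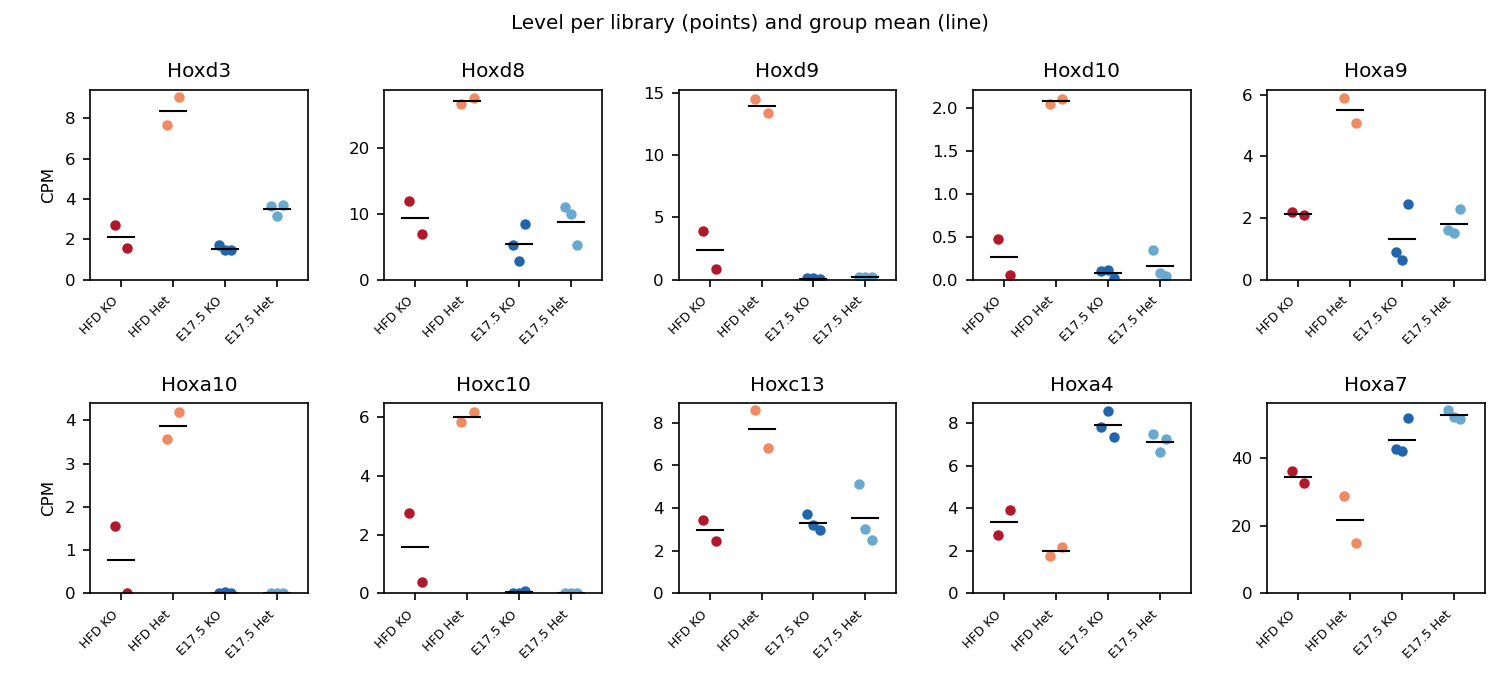
Level of 10 Hox genes per library in CPM from 0, by group (points) with the group mean (line). Hoxd3, Hoxd8, Hoxd9, Hoxd10, Hoxa9, Hoxa10, Hoxc10 and Hoxc13 are lower in the 2 HFD KO than in the 2 HFD Het libraries, and Hoxa4 and Hoxa7 are higher. Of all genes tested, 32.7% were lower in this way and 27% higher.

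Between KO and Het libraries of the HFD set, 2 Hox genes passed the test, both from the Hoxd cluster and both lower in KO. Hoxd3 fell to counts of 68 and 56 in KO, against 259 and 292 in Het (-1.97 on the log2 scale, SE 0.41, adjusted p = 0.0488 by edgeR). Hoxd8 fell to counts of 302 and 246 in KO, against 902 and 894 in Het (-1.52 on the log2 scale, SE 0.31, adjusted p = 0.048 by edgeR). That is 0 higher and 2 lower of 28 Hox genes tested, against 1.48% higher and 4.02% lower, 5.5% in all, of 15848 genes. Both adjusted p lie just under the threshold of 0.05. By edgeR without Het replicate 1, Hoxd3 had an adjusted p of 0.173 and Hoxd8 of 0.160, and without Het replicate 2 Hoxd3 had 0.254 and Hoxd8 0.187, with the lone Het library assumed to vary like the KO libraries. With DESeq2-type size factors both had 0.0502. Leaving out either KO library raised the number of genes called, among Hox genes and among all genes. The lone KO library was then assumed to vary like the 2 Het libraries, so these calls do not show a genotype effect. With library totals in place of TMM, which moves the median of all genes to -0.23, 0 Hox genes were called higher and 3 lower of 28. Of all genes tested, 0.871% were called higher and 7.58% lower, 8.46% in all.

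The genes that fell short of the threshold included Hoxc13 (-1.37 on the log2 scale, SE 0.36, adjusted p = 0.0734 by edgeR), Hoxa9 (-1.35 on the log2 scale, SE 0.36, adjusted p = 0.0782 by edgeR) and Hoxd9 (-2.55 on the log2 scale, SE 0.70, adjusted p = 0.092 by edgeR). Of paralog groups 9 to 13, 8 of 16 genes were tested, and all 8 lay below 0 (median -1.90 on the log2 scale). Over all genes 8009 of 15848 lay below 0 (median -0.0081). A gene that is near 0 in KO libraries entered the test through its Het counts, so the count over tested genes is a description. Of 20 tested genes in paralog groups 1 to 8, 9 lay below 0 (median 0.02). By cluster the median log2 value was 0.67 for 9 Hoxa, -0.22 for 8 Hoxb, -0.55 for 7 Hoxc and -2.26 for 4 Hoxd genes. The 2 KO libraries lay outside the range of the 2 Het libraries for 5 higher and 14 lower Hox genes of 28, against 27% higher and 32.7% lower, 59.7% in all, of the genes tested. The higher ones were Hoxa2, Hoxa4, Hoxa5, Hoxa6 and Hoxa7, none of which passed the test (edgeR adjusted p between 0.203 and 0.433).

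**Figure D3:**
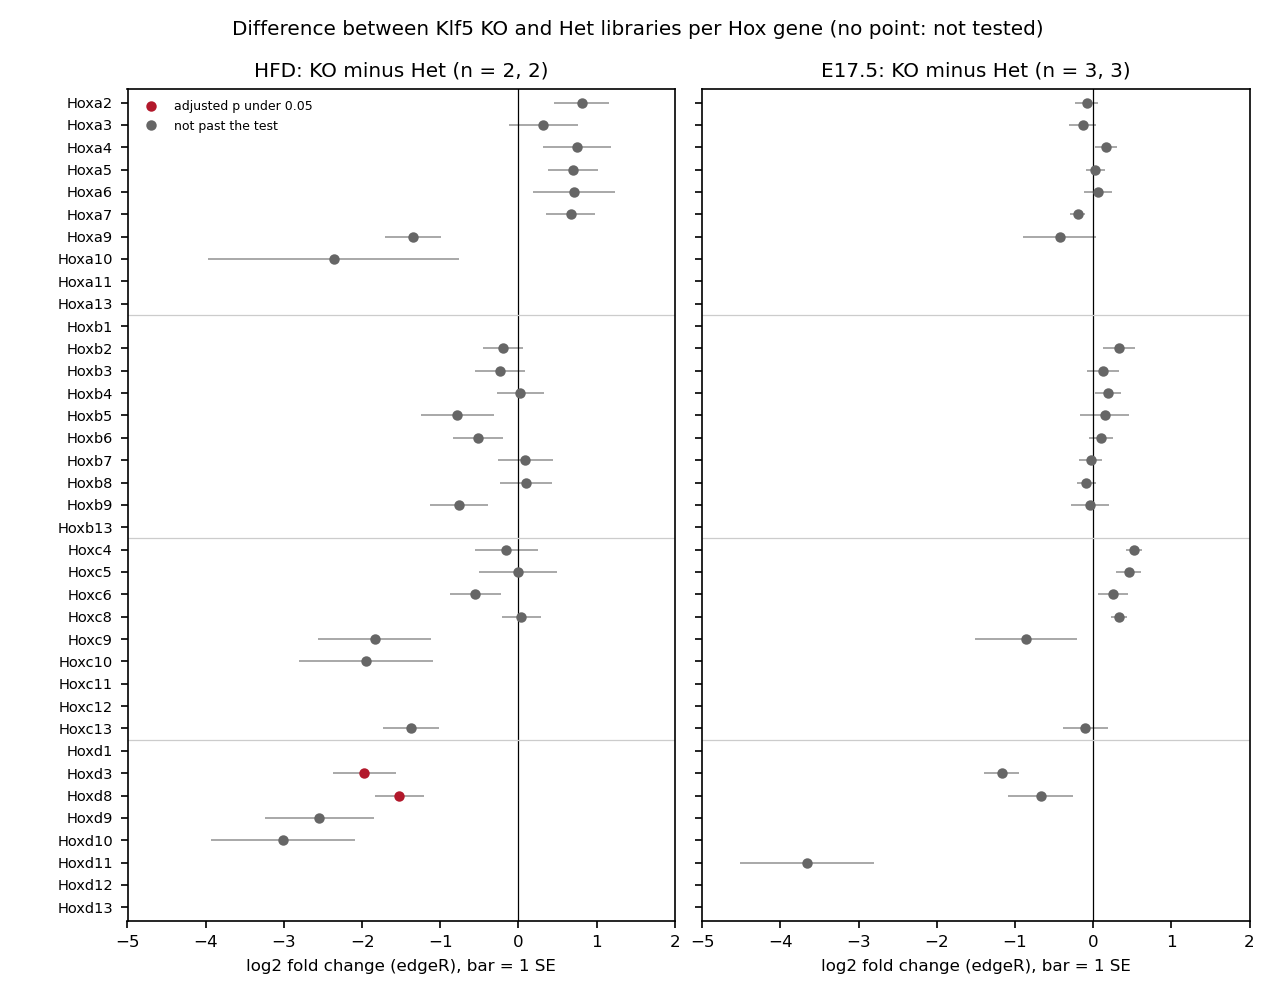
Log2 fold change of KO over Het per Hox gene with 1 SE (edgeR), ordered by cluster and paralog number, for the HFD set (left) and E17.5 (right). Red points, Hoxd3 and Hoxd8 in the HFD set, passed the test. Points of the HFD set lie below 0 from paralog group 9 on, and E17.5 points lie between -1.17 (Hoxd3) and 0.53 (Hoxc4) except for Hoxd11 at -3.66.

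Sums of several other cell types were also lower in both HFD KO than in both HFD Het libraries. Those of skeletal muscle and melanocyte markers overlapped, and the Schwann and neural sum was higher in KO. Of all genes tested in the HFD set, 4.02% were called lower and 1.48% higher in KO. The 15 fibroblast markers summed to 8336 and 2386 CPM in the HFD KO libraries, against 26510 and 30270 CPM in the HFD Het libraries. At E17.5 their sum was 1777 to 1959 CPM in KO and 1579 to 1918 CPM in Het libraries. Postn, whose counts are given further below, made up a large part of the E17.5 sum and had more counts there than in HFD KO. Col3a1 went the other way, with 4.61 to 32.2 CPM at E17.5, against 2393 and 264 CPM in HFD KO. The sum therefore does not place the sets alike for each of the 15 markers. All 15 had a fold change below 0 in HFD KO, 2 of them (Postn and Thy1) past the test, and none was at 0 counts in either set. At E17.5, 13 of 14 tested lay above 0 in KO, none past the test. The 8 endothelial markers summed to 81.2 and 18.5 CPM in HFD KO, against 406 and 444 CPM in HFD Het. The 9 skeletal muscle markers summed to 1183 and 122 CPM in HFD KO, against 3840 and 1054 CPM in HFD Het. The 8 smooth muscle and pericyte markers summed to 175.0 and 31.2 CPM in HFD KO, against 603 and 467 CPM in HFD Het. The 7 adipocyte markers summed to 234 and 373 CPM in HFD KO, against 1031 and 1524 CPM in HFD Het. The 26 hair matrix and shaft genes in the files summed to 281 and 434 CPM in HFD KO, against 1128 and 1065 CPM in HFD Het, with 13 lower and 0 higher past the test. Immune markers summed to 219.5 and 147 CPM in HFD KO, against 289.8 and 264 CPM in HFD Het, and erythroid markers to 374.5 and 485 CPM in HFD KO, against 1071 and 1077 CPM in HFD Het. Of 10 immune markers tested, 4 lay above 0 and 6 below in HFD KO. Melanocyte markers summed to 320.0 and 193 CPM in HFD KO, against 313 and 252.5 CPM in HFD Het. The 9 Schwann and neural markers summed to 177 and 233 CPM in HFD KO, against 164 and 171 CPM in HFD Het. The part of these cells in the Hox differences was not tested, and in such bulk libraries fewer cells of a type and less RNA per cell cannot be told apart.

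Paralog groups 9 to 13 summed to 19.97 CPM in HFD KO replicate 1 and 8.95 CPM in replicate 2, against 50.4 and 47.3 CPM in HFD Het. At E17.5 the same sum was 7.13 to 9.12 CPM in KO and 8.20 to 11.5 CPM in Het libraries, and HFD KO replicate 2 lay within the range of those libraries. Paralog groups 1 to 8 summed to 153 and 158 CPM in HFD KO, against 179 and 152 CPM in HFD Het, and these overlapped. As a share of all Hox counts, Hoxd genes made up 11.05% and 5.67% in HFD KO, against 22.4% and 26.3% in HFD Het. At E17.5 the Hoxd share of counts was 1.72% to 3.61% in KO and 3.87% to 5.59% in Het libraries, with no overlap. By RPKM it was 1.24% to 2.88% in KO and 2.59% to 4.32% in Het libraries, and the groups overlapped. The Hoxa share was 39.7% and 42.1% in HFD KO, against 27.65% and 21.1% in HFD Het.

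**Figure D4:**
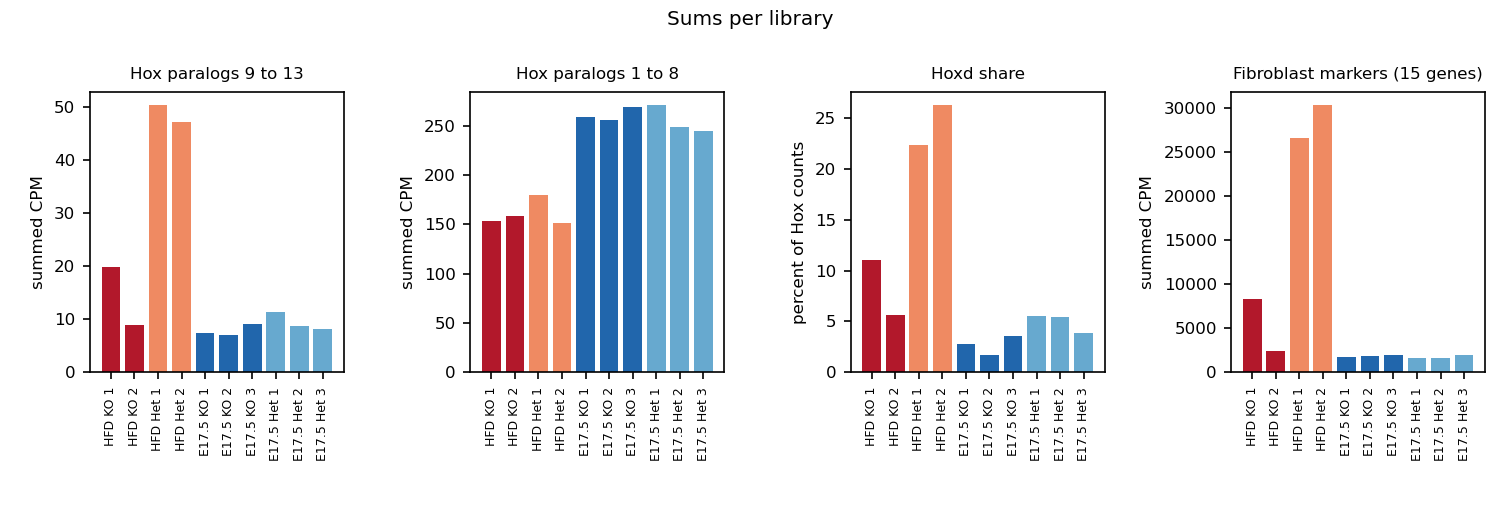
Sum over Hox paralog groups 9 to 13 and over groups 1 to 8 in CPM, the share of Hoxd genes in percent of Hox counts, and the sum of 15 fibroblast markers in CPM, one bar per library. The 2 HFD Het bars are highest for groups 9 to 13, for Hoxd and for the fibroblast markers, and HFD KO replicate 2 is lower than HFD KO replicate 1 in all 3.

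The libraries were also set side by side over all 38 genes by Pearson's r of log2(CPM + 0.1), a description across genes, which are not replicates. HFD KO replicate 2 had an r of 0.945 to 0.959 with the 6 E17.5 libraries and of 0.827 to 0.846 with the HFD Het libraries. HFD KO replicate 1 had the reverse, 0.952 to 0.959 with HFD Het and 0.840 to 0.863 with E17.5. The HFD Het libraries had an r of 0.702 to 0.751 with E17.5, and E17.5 libraries had 0.978 to 0.996 with each other. The 2 HFD KO libraries, labelled alike, thus had Hox profiles nearer to different groups (r = 0.933 with each other).

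At E17.5 no Hox gene passed the test between KO and Het libraries. By edgeR the count was 0 of 25 tested, against 0.0331% higher and 0.053% lower, 0.0861% in all, of 15092 genes, and 5 Hox genes had an unadjusted p under 0.05. DESeq2 called 3 of the 25 (Hoxc4, Hoxd3 and Hoxd11), against 3.03% of all genes. The nearest were Hoxd3, lower in KO (-1.17 on the log2 scale, SE 0.22, adjusted p = 0.0868 by edgeR), and Hoxc4 (0.53 on the log2 scale, SE 0.10, adjusted p = 0.0868 by edgeR). By edgeR without KO replicate 3 both passed, Hoxd3 with an adjusted p of 0.0428 and Hoxc4 with 0.021, and 513 of all genes (3.31%) were then called in place of 13. Hoxd11 had an edgeR adjusted p of 0.128, and Hoxc8 of 0.219. The KO libraries lay outside the Het range for 3 higher genes (Hoxc4, Hoxc5 and Hoxc8) and 3 lower genes (Hoxc9, Hoxd3 and Hoxd11) of 25, against 5.93% higher and 8.83% lower, 14.8% in all, of the genes tested. Hoxd3 lay lower in KO in both sets, but passed the test in the HFD set alone, just under the threshold. Of all genes tested, 8.83% lay lower in every KO library at E17.5 and 32.7% in the HFD set. The share lower in both sets was not computed. Hoxd3 was picked from these same data, so its place in both sets is a description.

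The difference between the genotype effects (HFD minus E17.5), tested in a fit of all 10 libraries, passed for 0 of 29 Hox genes, against 7.07% higher and 7.61% lower, 14.7% in all, of 17260 genes, and 5 Hox genes had an unadjusted p under 0.05. Hoxa7 (0.87 on the log2 scale, SE 0.30, adjusted p = 0.0754 by edgeR) and Hoxa2 (0.90 on the log2 scale, SE 0.32, adjusted p = 0.084 by edgeR) were nearest on the higher side, and both passed with DESeq2, which called 21.3% of all genes. Hoxc13 was nearest on the lower side (-1.27 on the log2 scale, SE 0.48, adjusted p = 0.101 by edgeR). Hoxd3 had an adjusted p of 0.232 and Hoxd8 of 0.401 in this edgeR test, so a call in one set alone does not show that the sets differ. Without HFD KO replicate 1 the count was 5 of 31, against 24.5% of all genes, and without HFD Het replicate 1 it was 2 of 29, against 7.29%. Without HFD KO replicate 2 it was 1 of 31, against 8.96%, and without E17.5 Het replicate 1 it was 1 of 29, against 11.2%. With library totals, which move the median of all genes to -0.31, it was 0 higher and 1 lower of 29, against 3.3% higher and 14.3% lower, 17.6% in all.

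The 2 sets differed in most Hox genes, as they did in most genes. Of 29 Hox genes tested, 10 were higher and 15 lower in the HFD set than at E17.5, against 35.9% higher and 33.6% lower, 69.5% in all, of 17260 genes. In groups 1 to 8, 14 of 20 were lower and 3 higher (Hoxb2, Hoxd3 and Hoxd8), with a median of -1.05 on the log2 scale. In groups 9 to 13, 7 of 9 tested were higher and 1 lower (Hoxd11). Genes with few or no counts in one set entered this fit through the other, as Hoxa10 and Hoxc10 did, with 2 and 5 counts over the E17.5 libraries, so this count is a description. The median over all genes was 0.02. Leaving aside Hoxd11, with 1 count over the HFD libraries, Hoxa6 fell most (-2.29 on the log2 scale, SE 0.22, adjusted p = 3.78e-06 by edgeR), followed by Hoxc5 (-1.83 on the log2 scale) and Hoxb8 (-1.77). Hoxd9 and Hoxd10 were also too low for a genotype test at E17.5, with 43 and 33 counts over those libraries. They entered through the HFD set, so their fitted differences, 5.28 for Hoxd9 and 2.64 for Hoxd10, are descriptions only. Among the higher genes tested in both sets, Hoxc9 differed most (2.87 on the log2 scale), followed by Hoxb2 (1.77). With library totals in place of TMM, which moves the median of all genes to -0.35, the split was 7 higher and 18 lower, against 26.9% higher and 47.1% lower, 74.1% in all.

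The sets differ in sorting and grinding, and the labels give a stage for the E17.5 set alone and the letters HFD and a library kit for the other alone. What each of these adds to a Hox difference cannot be told apart. In Het libraries alone, a split chosen after seeing the data, 11 Hox genes were higher and 15 lower of 29, against 34.4% higher and 30.8% lower, 65.2% in all, of all genes. In KO libraries alone 3 were higher and 11 lower of 26, against 26.3% higher and 24.9% lower, 51.2% in all. The fibroblast markers given above also stood apart between the sets, with 14 of 15 higher in the HFD set, against 35.9% of all genes tested. HTSeq left 1.07% to 1.14% of reads as ambiguous between genes in the HFD set and 3.4% to 3.79% at E17.5. This bears on Hox genes, since 23 of the 38 overlap another gene of the annotation, 15 of them on the same strand and 13 on the opposite strand. Of the 7 tested genes without an overlap, 3 were higher and 3 lower in the HFD set.

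Genes that act with or upstream of Hox genes were read from lists. For comparison, 4.02% of all genes tested were called lower and 1.48% higher in HFD KO. Of 11 TALE homeobox genes, whose proteins bind DNA beside Hox proteins, 1 fell and 0 rose in HFD KO. It was Meis1, with 7.68 and 4.75 CPM in the HFD KO libraries, against 17.3 and 21.4 CPM in the HFD Het libraries (-1.64 on the log2 scale, SE 0.32, adjusted p = 0.0454 by edgeR). For Meis1 and Meis3 the genotype effect also differed between the sets by edgeR, with a lower value in the HFD set. Of 44 Polycomb and trithorax genes, which silence or keep active the Hox clusters, 0 passed in either direction in HFD KO (median log2 value 0.12) or E17.5 KO (median 0.06). Of 21 tested transcription factors of body region other than Hox, 6 fell in HFD KO and 0 rose (median -1.76 on the log2 scale), and En1, Msx1 and Tbx2 were among those with the largest change. En1, a gene of ventral limb skin and of a dermal fibroblast lineage, had 0.477 and 0.141 CPM in the HFD KO libraries, against 4.24 and 5.39 CPM in the HFD Het libraries, with no overlap. Tbx15, a gene of dorsal trunk dermis, had 16.1 and 4.45 CPM in the HFD KO libraries, against 70.8 and 82.7 CPM in the HFD Het libraries and did not pass (-2.91 on the log2 scale, SE 0.67, adjusted p = 0.0817 by edgeR).

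Retinoic acid, the vitamin A product that turns on anterior Hox genes in the embryo, gave a further list. Of 15 tested genes of this pathway, 1 rose and 3 fell in HFD KO, against 1.48% and 4.02% of all genes tested. The binding protein gene Crabp2 rose, with 158 and 252 CPM in the HFD KO libraries, against 66.95 and 75.03 CPM in the HFD Het libraries (1.53 on the log2 scale, SE 0.26, adjusted p = 0.039 by edgeR). The synthesis genes Aldh1a3 and Aldh1a1 and the breakdown gene Cyp26b1 fell. Cyp26b1 had 29.0 and 22.8 CPM in the HFD KO libraries, against 66.3 and 74.0 CPM in the HFD Het libraries (-1.44 on the log2 scale, SE 0.21, adjusted p = 0.0339 by edgeR). At E17.5 none of 14 tested passed, with 3 above 0 and 11 below.

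The clusters also hold genes that are not members. Inside the 4 spans the files list 40 of them, and 20 had no count in any library, among them Mir10a, Mir10b, Mir196b and Mir196a-2. Hoxb3os, on the strand opposite to Hoxb2 and Hoxb3, was the most counted, with 302 and 425 counts in HFD KO, against 406 and 352 in HFD Het. It did not pass in either set (edgeR adjusted p = 0.881 for HFD and 0.653 for E17.5). On the strand opposite to Hoxd3 and Hoxd8, 1700109F18Rik had 100 and 118 counts in HFD KO, against 240 and 164 in HFD Het. In CPM too 1700109F18Rik was lower in both KO libraries, as were 32.7% of all genes tested. Without a stated strand setting, its reads and those of Hoxd3 and Hoxd8 cannot be told apart where they overlap.

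In windows from the first to the last Hox gene with 10 kb on each side, the authors' lists held 13 H3K27ac peaks (4 in Hoxa, 6 in Hoxb, 3 in Hoxc and 0 in Hoxd), 21 ATAC peaks (5, 3, 8 and 5) and 2 KLF5 peaks (1 in Hoxa and 1 in Hoxc). An H3K27ac peak lay within 1 kb of the start of 4 of 38 Hox genes (Hoxa4, Hoxb6 and Hoxb7 among them), against 25.1% of all genes. Of the 25 Hox genes tested at E17.5 it was 4, or 16%, against 57.7% of all genes tested. An ATAC peak lay there for 9 of 38 (Hoxa4, Hoxa7, Hoxb1, Hoxc6, Hoxc8, Hoxc13, Hoxd1 and Hoxd8 among them), against 37.5%, and for 7 of 25, or 28%, against 77.4%. A KLF5 peak lay there for 0 of 38, against 8.19%, and 0 of 25, against 18.9%. The starts are those of the deposited spans, and with the RefSeq starts of 22 Hox genes it was 1 with H3K27ac (Hoxa7), 4 with ATAC (Hoxb1, Hoxd1, Hoxd8 and Hoxd11) and 0 with KLF5. With 1 sample an assay there is no replicate, and fold enrichment and q values are the authors' own.

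The H3K27ac peaks over Hox genes were weaker than the list as a whole, with a median fold enrichment of 3.10 against 3.70 over 18155 peaks. The strongest by q lay in Hoxc6 (mm10, chr15:102999283-103001097, fold enrichment 4.13, -log10 q 21.3). Inside it lay the KLF5 peak of the Hoxc cluster (chr15:102999964-103000188, fold enrichment 4.34, -log10 q 7.44), whose summit was 1804 bases downstream of the annotated Hoxc6 start, within the spans of Hoxc5 and Hoxc6. No ATAC peak overlapped it. The ATAC peak nearby (chr15:102999074-102999916) overlapped the H3K27ac peak. The other KLF5 peak, in the Hoxa window, lay outside every Hox gene. Hoxc6 had an edgeR adjusted p of 0.323 in the HFD set and 0.771 at E17.5.

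The strongest ATAC peak of the windows (chr15:103041181-103042069, fold enrichment 9.89) lay 22977 bases downstream of the annotated Hoxc4 start, outside every Hox gene, and overlapped an H3K27ac peak (chr15:103041635-103042098). In all, 7 of the 13 H3K27ac peaks overlapped an ATAC peak. From paralog group 9 on, the clusters held 2 ATAC peaks in Hoxc13 and 1 in Hoxd11, and 1 H3K27ac peak between Hoxb9 and Hoxb13. Over the whole Hoxd window there was no H3K27ac and no KLF5 peak, while 5 ATAC peaks lay in or near Hoxd11, Hoxd8, Hoxd3 and Hoxd1. Hoxa7, Hoxb7 and Hoxa5, highest by RPKM at E17.5, had among them 1 H3K27ac peak (Hoxb7) and 1 ATAC peak (Hoxa7) within 1 kb of the deposited start.

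**Figure D5:**
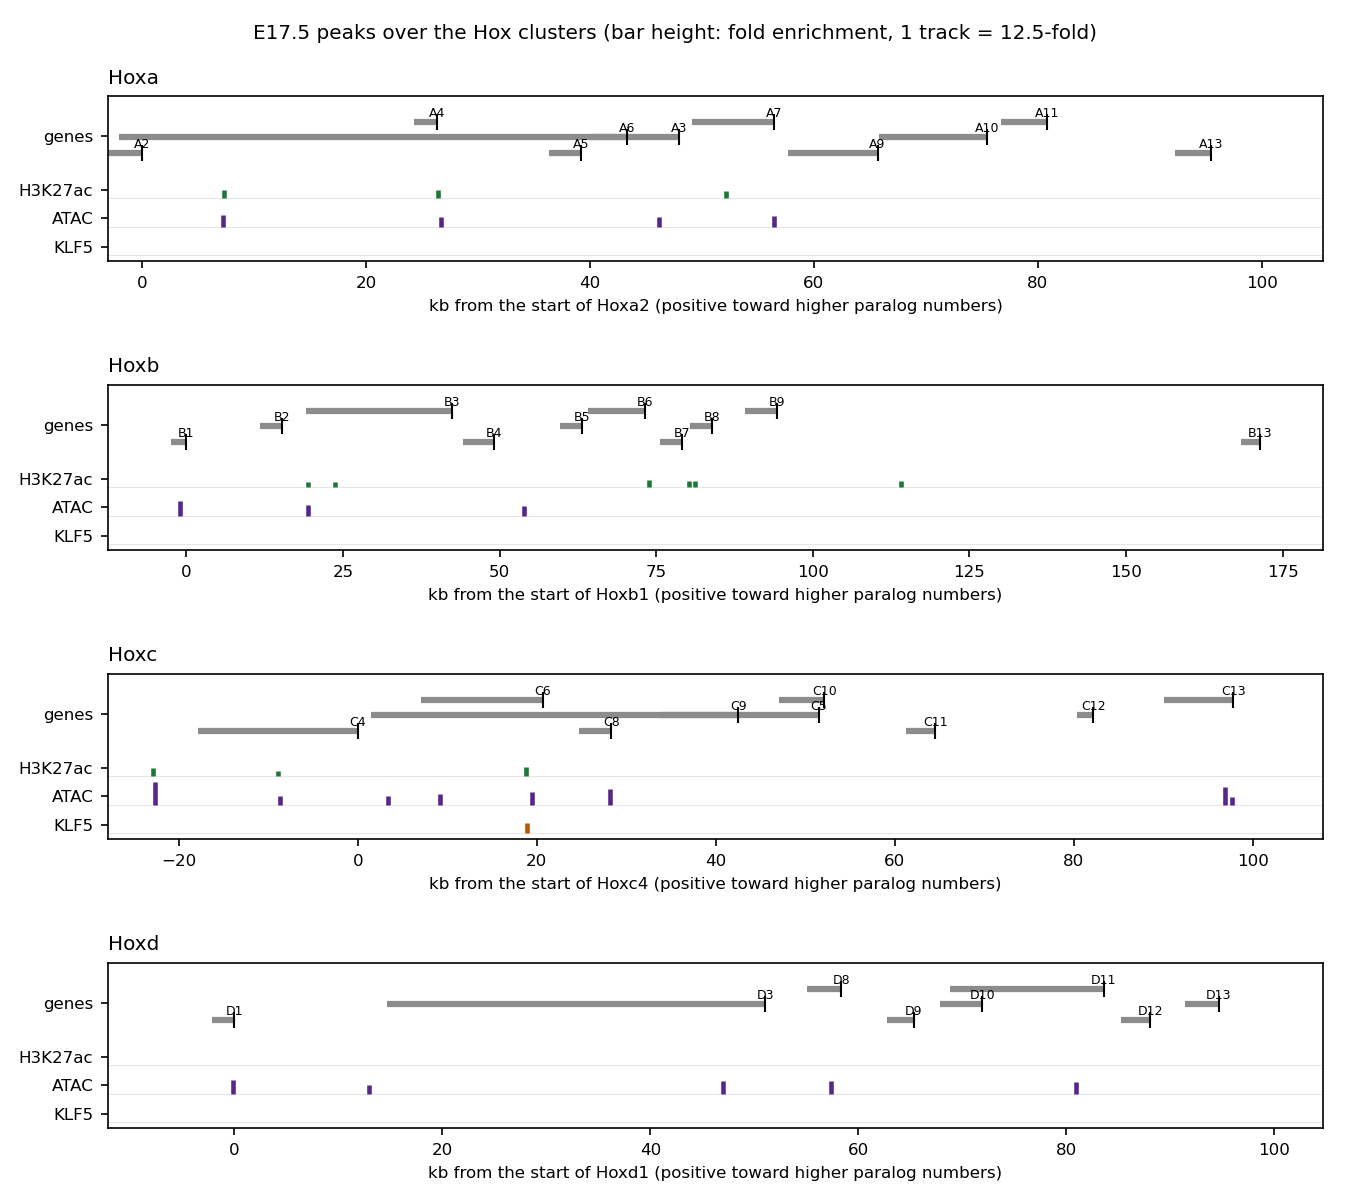
Genes (grey, with a tick at the start) and E17.5 peaks over the 4 Hox clusters, in kb from the start of the lowest-numbered gene drawn. The Hoxa panel begins at the end of Hoxa2. Bar height is the authors' fold enrichment on 1 scale for all tracks. The 5 ATAC peaks of Hoxd stand without H3K27ac or KLF5 peaks, and the KLF5 peak in Hoxc lies under an H3K27ac peak.

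The Hoxd promoters are shown because Hoxd3 and Hoxd8 passed the test in the HFD set and because the E17.5 ATAC peaks of Hoxd11 and Hoxd1 lie over a promoter. The sequences are from RefSeq (GRCm38.p6, plus strand of chromosome 2), cover 250 bases before to 50 after a start and run 5′ to 3′. Capitals mark CACCC (or GGGTG on the other strand) and GGGCGG (or CCGCCC), short motifs of the kind that KLF and SP proteins bind.
Hoxd3 (chr2:74711743-74712042): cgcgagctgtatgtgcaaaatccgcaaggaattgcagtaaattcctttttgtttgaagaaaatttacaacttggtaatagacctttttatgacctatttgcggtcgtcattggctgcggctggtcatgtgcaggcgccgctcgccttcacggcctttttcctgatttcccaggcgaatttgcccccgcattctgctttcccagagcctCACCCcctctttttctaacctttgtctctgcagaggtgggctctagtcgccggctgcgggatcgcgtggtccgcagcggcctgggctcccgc
Hoxd8 (chr2:74704365-74704664): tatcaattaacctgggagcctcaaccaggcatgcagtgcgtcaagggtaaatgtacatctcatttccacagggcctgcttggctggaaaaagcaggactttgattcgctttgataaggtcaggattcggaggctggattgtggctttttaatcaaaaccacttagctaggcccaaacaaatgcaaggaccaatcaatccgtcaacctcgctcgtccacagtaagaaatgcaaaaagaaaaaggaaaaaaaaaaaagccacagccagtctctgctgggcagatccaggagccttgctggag
Hoxd11, second start (chr2:74682073-74682372): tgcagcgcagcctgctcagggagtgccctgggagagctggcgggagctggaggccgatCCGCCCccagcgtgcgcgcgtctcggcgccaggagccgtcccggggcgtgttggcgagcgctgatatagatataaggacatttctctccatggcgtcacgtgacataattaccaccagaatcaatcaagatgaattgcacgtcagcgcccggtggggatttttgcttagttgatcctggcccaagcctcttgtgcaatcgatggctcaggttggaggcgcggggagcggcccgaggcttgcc
Hoxd1 (chr2:74762730-74763029): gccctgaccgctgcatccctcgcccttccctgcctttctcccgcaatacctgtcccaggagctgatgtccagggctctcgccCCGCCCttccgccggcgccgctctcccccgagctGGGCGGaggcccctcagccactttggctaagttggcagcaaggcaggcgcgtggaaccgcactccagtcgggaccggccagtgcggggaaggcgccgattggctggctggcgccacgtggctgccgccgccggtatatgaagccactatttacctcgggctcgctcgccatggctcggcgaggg

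Searched on both strands, the Hoxd3 promoter held 1 CACCC and 0 GGGCGG, the Hoxd8 promoter 0 of each, the Hoxd11 promoter 0 CACCC and 1 GGGCGG, and the Hoxd1 promoter 0 CACCC and 2 GGGCGG. The G and C content was 54.0% for Hoxd3 and 46.7% for Hoxd8, against 62.0% for Hoxd11 and 69.7% for Hoxd1. Over 32851 RefSeq promoters of this length, 57.5% held CACCC and 35.7% GGGCGG. Of the 24 Hox promoters in the table, which stand for 22 Hox genes including Hoxd4, 16 held CACCC and 10 GGGCGG. A match describes the letters and is no site. No KLF5 peak overlapped any of the 4.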

How the data were processed

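RNA was measured in 10 libraries. The authors deposited raw counts per Ensembl gene, made with STAR 2.6.0b and HTSeq on mm10, per the submitters' processing notes; no source used here gives the strand setting. The E17.5 counts were joined to the deposited gene names, spans and exon lengths by Ensembl ID. Lines that name no gene (13.4% to 16.8% of reads) were left out. Peak lists deposited by the authors give MACS2 fold enrichment and -log10 q, per the submitters' processing notes and the file format, with Bowtie 1.0.1 and Bowtie2 2.2.3 among the tools; no source used here gives their control or threshold. Coordinates are mm10, counted from 1.

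Each comparison was fitted over all genes with edgeR 4.0.16 (quasi-likelihood test, TMM, filterByExpr by group, robust) in R 4.3.3, and p-values were adjusted by Benjamini-Hochberg over all genes tested, with 0.05 as the threshold. Genotypes were compared within each set, and the sets and the difference of effects in a fit of all 10 libraries. The scripts were tested on simulated data. Alternatives used DESeq2 1.42.0, limma 3.58.1, other scalings and filters, the replicate number as a block and leaving out each library. The replicate numbers share only a number (correlation of deviations 0.052, -0.119 and 0.250 at E17.5, and 0.212 in the HFD set with 2 pairs). RPKM was computed from the deposited counts and exon lengths.

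The members, gene lists and tests were chosen with earlier results of these data known. Values of every library are given for Hox genes with a mean of at least 1 CPM in either set or past a test; genes of other lists are named when past the test, at most 4 by size, or among the 3 with the highest level. The labels do not say whether replicates are separate animals, and if they are not, the p-values reflect technical spread alone. Some genes, 1 Hox gene among them, are not reported here by name, although sums and counts over lists include them. Peaks of a human cell line were not used here.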

Additional observations from a re-analysis of the deposited data

Results flagged for a closer look

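No Hox gene was singled out, but for 6 of the other genes named above, each tested in both sets, the genotype effect differed between the HFD and E17.5 sets in the edgeR fit of all 10 libraries (HFD minus E17.5 on the log2 scale, adjusted p-values over all genes). The difference was -1.68 for Meis1 (adjusted p = 0.00816) and -1.14 for Meis3 (adjusted p = 0.0373) among the TALE homeobox genes. It was -2.82 for Tbx2 (adjusted p = 0.0189), a regional transcription factor. It was 1.74 for Crabp2 (adjusted p = 0.0124), and it was -1.44 for Postn (adjusted p = 0.0055) and -2.60 for Thy1 (adjusted p = 0.000976) among the fibroblast markers. En1 (0 to 12 counts at E17.5) and Tbx15 (4 to 23) were too low for a test there and entered the fit of all libraries through the HFD set. Their fitted differences, -5.05 for En1 and -4.26 for Tbx15, are descriptions only. Postn had 22462 and 21559 counts in HFD KO, against 66222 and 72301 in HFD Het, and at E17.5 38511 to 46316 in KO and 37429 to 53711 in Het libraries, where the groups overlapped. The part of other cell types in these differences was not tested.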

How the results depend on the processing

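No Hox fold change with an unadjusted p under 0.05 in the main edgeR fit changed sign under any of the alternatives run. These genes were picked by that p in the same libraries, so a change of sign was unlikely from the start. The balance of higher and lower calls did change in places. With library totals, genes called between the sets went from 6193 higher and 5796 lower to 4650 higher and 8135 lower. For the difference of the genotype effects, DESeq2 called 2 Hox genes higher, while library totals called 1 lower. Of 963 alternative values of Hox genes, counts, shares and peaks, 825 were scored as unchanged. For a fold change this meant the same call, and for a share a mean within the SD of the libraries. For counts and peaks it meant a value within a fixed ratio of the main one, which measures no spread. Of the unchanged values, 446 were fold changes between the sets. For HFD KO versus Het, 56 fold changes kept their call, 21 gained one and 7 lost one. Between HFD KO and Het, the number of Hox genes called was 2, and it was 0 with DESeq2-type size factors, 4 without a low-count filter, 6 with DESeq2, 5 with limma-voom and 4 in the fit of all 10 libraries; leaving out 1 library gave 0 to 11. The number of all genes called was 872, against 1340 with library totals, 2396 without a filter, 2906 with DESeq2, 2025 with limma-voom and 3672 in the fit of all libraries; leaving out 1 library gave 19 to 5389. At E17.5 the number of Hox genes called was 0, against 2 without a filter and 3 with DESeq2, and leaving out 1 library gave 0 to 2. The number of all genes was 13, against 6 with library totals, 237 without a filter, 2 at a mean of at least 1 CPM, 458 with DESeq2, 8 with limma-voom and 3 in the fit of all libraries, and leaving out 1 library gave 0 to 513. For the difference of the genotype effects 0 Hox genes passed, against 1 with library totals, 2 with DESeq2 and 1 with limma-voom, and leaving out 1 library gave 0 to 5 (all genes 1266 to 4467). Between the sets 25 Hox genes passed, and 14 in KO libraries only, a split chosen after seeing the data. Why the counts moved was not tested.

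With the replicate number as a block (replicate block), 2 Hox genes passed in the HFD set and 1520 of all genes, 0 Hox genes and 42 of all genes at E17.5, 1 Hox gene for the difference of the effects, and 24 between the sets. Same-numbered libraries did not deviate together in every pair, so the numbers are not taken as pairs.

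By RPKM in place of counts, paralog groups 9 to 13 made up 2.572% in E17.5 KO (2.94% by counts) and 3.029% in E17.5 Het (3.577%), and Hoxd genes 3.673% in E17.5 Het (4.966%). With a -log10 q of at least 10, an H3K27ac peak lay near 1 Hox start and an ATAC peak near 5, and the windows held 4 H3K27ac, 6 ATAC and 0 KLF5 peaks. Counting only peaks that cover the start, there were 2 Hox genes with H3K27ac and 4 with ATAC. KLF5 lay within 2.5 kb of 1 Hox start, and the windows held 1 KLF5 peak with a -log10 q of at least 5 and 1 without the flanks. Depth limits the genes of paralog groups 9 to 13 most, many of which had fewer than 3 counts in a library at E17.5.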
